A study of Homo sapiens with 8 samples.

Results

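Translation initiation factors were followed in K562, an established human leukaemia cell line labelled wild type, by RNA sequencing after removal of ribosomal RNA. The genes were every row of the deposited count table whose symbol begins with EIF and a digit from 1 to 6, with the EIF2AK kinases left out, which gave 52 of 19447 gene symbols. The series holds 8 libraries. Untreated cells, labelled day 0, gave 4 of them (controls 1 to 4). Cells exposed to Lip-1 for 24 h, labelled day 1, gave 3 libraries at a dose of 10 µM (numbered 2 to 4) and a single one at 20 µM (numbered 1). All were grown in RPMI with fetal bovine serum. Lip-1 is the usual short name of liproxstatin-1, a radical-trapping inhibitor of lipid peroxidation, although the labels do not spell it out. They do not say whether controls received a vehicle, and treatment and labelled day cannot be told apart. Nothing in the labels says that the libraries came from separate cultures, so p-values measure only the spread between these samples, which may be technical.

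In initiation, eIF2 brings the initiator tRNA to the small ribosomal subunit, eIF3 binds that subunit and helps to load the mRNA, and eIF1 and eIF1A keep it scanning until a start codon is met. The cap-binding complex eIF4F, made of eIF4E, the scaffold eIF4G and the helicase eIF4A, recruits the mRNA, and the 4E-binding proteins keep eIF4E from that complex when mTORC1 is inactive. eIF2B recharges eIF2 with GTP and is blocked by phosphorylated eIF2, the central step of the integrated stress response. eIF5B joins the large subunit, and eIF5A, despite its name, acts mostly in elongation. Many mRNAs of the translation machinery open with a C and a run of pyrimidines, the 5′ TOP motif, through which LARP1 and mTORC1 control their translation.

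Total counts ran from 71151415 to 141307169 per library, with the highest totals in the replicate 1 libraries of both kinds (20 µM replicate 1 and control 1). Of 10 markers fixed for K562 and erythroid cells all were present, and their summed level ran from 5214 to 8081 CPM in controls and from 4332 to 5111 CPM at 10 µM, and was 3138 CPM at 20 µM. Of 6 monocyte and granulocyte markers MPO and ELANE were at 0 in all controls, with summed levels of 19.8 to 127.3 CPM in controls, 19.0 to 99.5 CPM at 10 µM and 22.0 CPM at 20 µM. Of 6 lymphocyte markers MS4A1 was at 0 in all controls, and sums ran from 14.6 to 17.7 CPM in controls and 13.6 to 23.1 CPM at 10 µM, and was 7.26 CPM at 20 µM. The 6 epithelial and fibroblast markers summed to 32.3 to 61.3 CPM in controls, 31.8 to 42.7 CPM at 10 µM and 27.2 CPM at 20 µM. What part these differences had in the results was not tested. CPM here are counts per 1000000 of a library's effective size (its counts times its TMM scaling factor), so that a gene's levels can be set side by side across libraries.

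The near-identical copies EIF3C, EIF3CL, EIF2S3B and EIF5AL1 behaved unlike the rest, and their values are given apart. They stay in the member counts and medians below. The summed level of EIF3C and EIF3CL, a nearly identical gene pair for the same eIF3 subunit, was 129.4, 545.7, 620.0 and 539.5 CPM in controls 1 to 4, 377.4, 350.7 and 308.4 CPM at 10 µM in replicates 2 to 4, and 68.7 CPM at 20 µM in replicate 1. Both replicate 1 libraries were thus far below the others, the untreated one included. At 20 µM against 10 µM the edgeR fit without a replicate block gave a log2 fold change of −2.35 ± 0.74 for the summed pair (adjusted p = 0.045), but with the replicate number as a block neither gene passed, at −0.85 for EIF3C (adjusted p = 0.49) and 0.24 for EIF3CL (adjusted p = 0.74). EIF3C took 16.4% of that sum in control 2, against 62.1% to 66.0% in the other libraries, and how the authors divided reads between copies is not given in the sources used here. At 10 µM against control the summed pair was not called (log2 fold change −0.41 ± 0.42, adjusted p = 0.56, edgeR without the block). Nor was it for all treated libraries (−0.73 ± 0.57, adjusted p = 0.39). The sum was not fitted with the block, so the calls of EIF3CL below may depend on that division. EIF2S3B and EIF5AL1, copies of EIF2S3 and EIF5A, were also lowest in the replicate 1 libraries, at 0.327 and 0.374 CPM at 20 µM and 0.0991 and 1.05 CPM in control 1. For these 4 genes the 20 µM dose and replicate 1 cannot be told apart. EIF5AL1 held so few counts that EIF5A kept 99.3% to 99.9% of their sum.

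Of the 52 genes 50 passed the filter on low counts in the comparison of all treated with all control libraries, and 51 in the fit with 3 doses. EIF4E1B, a germ cell form of eIF4E, was at 0 in every library, and EIF1AY passed only in the second fit. At 10 µM, 18 of 51 members were lower than in controls and 0 were higher (edgeR quasi-likelihood test, Benjamini-Hochberg adjusted p under 0.05 over all genes tested). Among all 14857 genes tested, 9.79% were lower and 9.34% higher by the same rule. At an unadjusted p under 0.05, 28 members were lower and 3 higher. The median log2 fold change of the members was −0.31, against 0.05 over all genes tested. Whether fewer cells held these transcripts or each cell held less cannot be told apart in bulk RNA.

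Each treated library deviated most like the control of its own number, in some cases by a small margin, so a pairing by number was assumed rather than known. With the number as a block 28 members were lower and 2 higher at 10 µM, against 15.2% and 16.2% of all genes. All 18 calls held in that fit, and it added EIF1AX, EIF2B2, EIF2B5, EIF3A, EIF3CL, EIF3J, EIF3K, EIF4E, EIF4E2 and EIF5 on the lower side and EIF1 and EIF4E3 on the higher. Without the block, 12 of the 18 calls held when any 1 of the 8 libraries was left out. The 6 others were EIF1AD, EIF2B3, EIF3M, EIF4EBP1, EIF4G2 and EIF5B. Each lost its call without 10 µM replicate 4, the library whose omission left the fewest member calls, 12. Over all genes, those called lower went from 1455 to 732 without that library and to 721 without 10 µM replicate 3.

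All treated libraries together against all controls gave 15 lower members of 50 and 0 higher, where 6.69% of 13101 genes were lower and 7.47% higher, and at an unadjusted p under 0.05 there were 25 lower and 2 higher. All 15 were among the 18 found at 10 µM, the remaining 3 being EIF2B3, EIF3M and EIF4EBP1. With the replicate block 20 were lower and 1 higher, against 10.4% and 11.1% of all genes. All 15 calls held, and it added EIF2B3 (adjusted p = 0.022), EIF2B5 (0.046), EIF3CL (0.023), EIF3M (0.038) and EIF4E (0.037) on the lower side and EIF4E3 (0.025) on the higher. This comparison mixed both doses and rested on single libraries: 6 lower calls were left without control 1, 2 without control 2, 0 without control 3, 3 without control 4, 6 without 10 µM replicate 3 and 2 without 10 µM replicate 4, and 22 were made without the 20 µM library. Lower genes in the whole table numbered 876 with every library kept. On omitting controls 1 to 4 in turn they numbered 276, 67, 21 and 160. Omitting 10 µM replicate 3 gave 365 and replicate 4 gave 120, whereas omitting replicate 2 gave 1055 and the 20 µM library 1586. The loss of calls was thus seen over all genes, not only among the members. By position alone, every treated library lay below every control for 25 of the 50 members and above for 1, EIF1, where 14.4% and 13.6% of all genes tested did so. The values by dose are therefore given for each role.

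**Figure D1:**
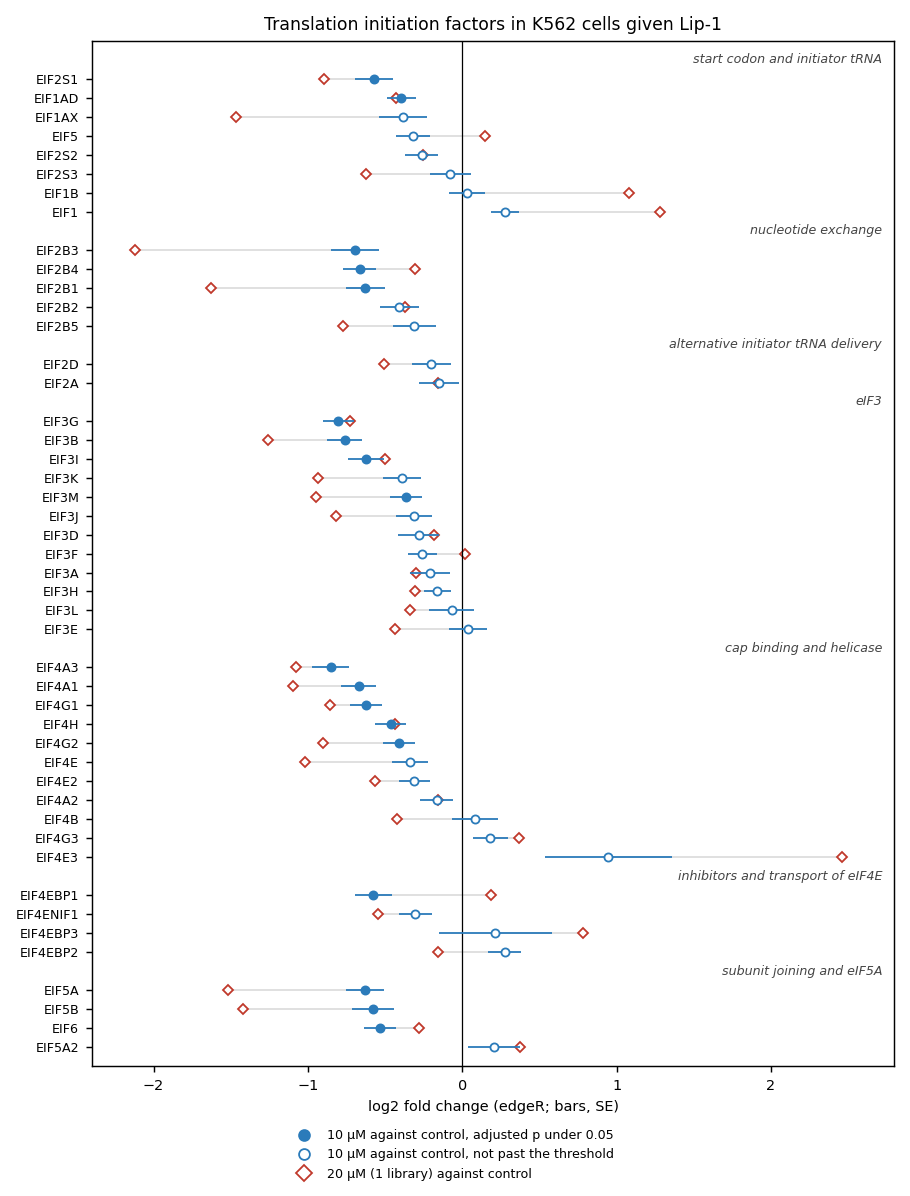
Log2 fold change of 46 initiation factor genes against controls, ordered by role. Circles with SE bars show 10 µM (3 libraries; filled where the adjusted p passed 0.05), open diamonds the single 20 µM library, and near-identical copies, EIF1AY and EIF4E1B are left out. All 18 filled circles lie left of 0, and EIF1, EIF1B and EIF4E3 lie farthest right at 20 µM.

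The group of eIF2 and the start codon factors gave 2 lower calls at 10 µM among 10 members tested, EIF2S1 and EIF1AD. EIF1AD was put in this group by its name, and these data do not show a role in start codon choice. EIF2S1 encodes eIF2α, the subunit phosphorylated under stress (chr14:67359997-67386516, GENCODE release 29 on hg38). Its level was 207.0, 249.5, 285.3 and 243.5 CPM in controls 1 to 4, 150.4, 175.3 and 172.8 CPM at 10 µM in replicates 2 to 4, and 134.8 CPM at 20 µM. Every treated library lay below every control, and the log2 fold change at 10 µM was −0.57 ± 0.13 (SE, adjusted p = 0.015, edgeR). EIF2S2, for eIF2β, averaged 256.8 ± 27.0 CPM at 10 µM and 307.1 ± 19.8 CPM in controls (SD, n = 3 and 4), and here too every treated library lay below every control, although the call was not made (adjusted p = 0.12). EIF2S3, for eIF2γ, averaged 642.0 ± 56.8 CPM at 10 µM and 675.6 ± 98.0 CPM in controls (adjusted p = 0.74), with overlap. Differences between the 3 subunits were not tested.

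EIF1AD, named for its eIF1A-like domain, had 60.9, 66.8, 64.5 and 59.8 CPM in controls 1 to 4, 50.6, 48.6 and 45.0 CPM at 10 µM, and 47.5 CPM at 20 µM. The treated libraries were all below the controls (log2 fold change at 10 µM −0.39 ± 0.09 SE, adjusted p = 0.020), although the call was lost without any 1 of 10 µM replicates 3 and 4 or controls 2 and 3. EIF5 encodes the GTPase-activating protein of eIF2. It had 366.9, 426.9, 450.8 and 410.0 CPM in controls, 298.9, 358.1 and 341.1 CPM at 10 µM and 465.2 CPM at 20 µM, so the 10 µM libraries were the lowest and the 20 µM library the highest. At 10 µM the log2 fold change was −0.32 ± 0.11 (adjusted p = 0.073, and 0.012 with the replicate block). EIF2A and EIF2D, which can deliver initiator tRNA without eIF2, were not called at any dose.

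eIF1 and eIF1A, which act together on the scanning ribosome, moved in opposite directions at 20 µM. The genes EIF1, EIF1B and EIF1AX are given here because of that, after their values were seen. EIF1 (chr17:41688885-41692668) had 431.9, 433.2, 486.9 and 436.3 CPM in controls, 522.4, 534.9 and 573.2 CPM at 10 µM and 1102 CPM at 20 µM. It was the single member with every treated library above every control, yet at 10 µM the log2 fold change of 0.28 ± 0.09 did not pass the threshold (adjusted p = 0.064, and 0.044 with the block). Its close relative EIF1B had 78.4, 82.1, 82.2 and 77.6 CPM in controls, 69.4, 80.8 and 95.8 CPM at 10 µM and 172.2 CPM at 20 µM. EIF1AX, on the X chromosome, had 312.6, 411.3, 403.4 and 340.6 CPM in controls, 238.1, 345.0 and 263.8 CPM at 10 µM and 135.2 CPM at 20 µM. The 20 µM library was the highest of all for EIF1 and EIF1B and the lowest of all for EIF1AX. Against 10 µM the log2 fold change was 1.00 ± 0.13 for EIF1 (adjusted p = 0.0012), 1.05 ± 0.17 for EIF1B (adjusted p = 0.0027) and −1.08 ± 0.25 for EIF1AX (adjusted p = 0.013), and all 3 calls held with the block.

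Of the 5 subunits of eIF2B, EIF2B1, EIF2B3 and EIF2B4 fell at 10 µM, while EIF2B2 (log2 fold change −0.41 ± 0.13, adjusted p = 0.052) and EIF2B5 (−0.31 ± 0.14, adjusted p = 0.15) did not pass the threshold, and with the block all 5 were called lower. Differences between the subunits were not tested. EIF2B3, the γ subunit (chr1:44850522-44986722), had 137.6, 180.1, 205.0 and 167.9 CPM in controls, 118.3, 114.5 and 88.1 CPM at 10 µM and 40.4 CPM at 20 µM. EIF2B1, the α subunit that senses phosphorylated eIF2, had 186.8, 202.3, 217.1 and 174.5 CPM in controls, 142.5, 129.7 and 108.1 CPM at 10 µM and 64.2 CPM at 20 µM. For both genes the doses did not overlap, and 20 µM left 23.4% of the mean control level for EIF2B3 and 32.9% for EIF2B1.

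EIF2B4, the δ subunit, had 79.6, 79.4, 87.7 and 81.0 CPM in controls, 58.7, 50.8 and 46.0 CPM at 10 µM and 67.3 CPM at 20 µM. Its 20 µM library lay between the 10 µM and the control libraries. EIF2B5, the catalytic ε subunit, had 86.6, 105.4, 110.5 and 89.6 CPM in controls, 90.7, 81.2 and 65.8 CPM at 10 µM and 58.2 CPM at 20 µM, with 10 µM and controls overlapping. At 10 µM the log2 fold changes were −0.69 ± 0.16 for EIF2B3 (adjusted p = 0.017, lost without 10 µM replicate 4), −0.63 ± 0.12 for EIF2B1 (adjusted p = 0.011) and −0.66 ± 0.11 for EIF2B4 (adjusted p = 0.0049). Between 20 µM and 10 µM they were −1.42 ± 0.26 for EIF2B3 (adjusted p = 0.0045) and −1.0 ± 0.20 for EIF2B1 (adjusted p = 0.0067), both held with the block, and 0.36 ± 0.16 for EIF2B4 (adjusted p = 0.13). EIF2B2, the β subunit, averaged 43.3 ± 5.64 CPM in controls and 32.7 ± 2.16 CPM at 10 µM (SD, n = 4 and 3), and was 34.1 CPM at 20 µM.

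Among the 12 eIF3 subunits left after EIF3C and EIF3CL, 4 fell at 10 µM, namely EIF3B, EIF3G, EIF3I and EIF3M. EIF3B, EIF3G and EIF3I encode the module that sits with eIF3a near the mRNA entry channel. EIF3B (chr7:2354086-2380745) had 740.4, 854.9, 905.5 and 739.7 CPM in controls, 520.9, 481.2 and 435.7 CPM at 10 µM and 344.7 CPM at 20 µM. EIF3G (chr19:10115017-10119918), an RNA-binding subunit, had 277.6, 239.5, 272.6 and 249.8 CPM in controls, 160.5, 144.8 and 142.7 CPM at 10 µM and 159.1 CPM at 20 µM. EIF3I, a β-propeller subunit, had 449.8, 446.2, 520.7 and 432.8 CPM in controls, 337.4, 297.8 and 267.7 CPM at 10 µM and 331.7 CPM at 20 µM. In all 3 every treated library was below every control, and at 20 µM EIF3B was lower than in any 10 µM library while EIF3G and EIF3I lay within the 10 µM range.

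The log2 fold changes at 10 µM were −0.76 ± 0.11 for EIF3B (adjusted p = 0.0038), −0.80 ± 0.10 for EIF3G (adjusted p = 0.0019) and −0.62 ± 0.11 for EIF3I (adjusted p = 0.0079), and each call held without any 1 library. EIF3A, the largest scaffold subunit, had 563.6, 752.5, 763.4 and 676.0 CPM in controls, 604.1, 648.9 and 541.8 CPM at 10 µM and 568.6 CPM at 20 µM. These ranges overlapped, and the log2 fold change of −0.21 ± 0.13 passed the threshold only with the block (adjusted p = 0.30 without and 0.018 with it). EIF3M averaged 410.3 ± 20.4 CPM at 10 µM and 526.0 ± 49.9 CPM in controls (SD, n = 3 and 4; log2 fold change −0.36 ± 0.10, adjusted p = 0.039). Its call held in 2 of the 8 fits with 1 library left out, being lost without any 1 of 10 µM replicates 2, 3 and 4 or controls 2, 3 and 4.

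The subunits EIF3D, EIF3E, EIF3F, EIF3H, EIF3J, EIF3K and EIF3L had log2 fold changes from −0.39 (EIF3K) to 0.04 (EIF3E) at 10 µM and were not called. EIF3E averaged 663.9 ± 79.5 CPM in controls and 683.6 ± 74.5 CPM at 10 µM (SD, n = 4 and 3), and was 498.3 CPM at 20 µM. EIF3F averaged 249.4 ± 14.2 CPM in controls and 209.2 ± 14.0 CPM at 10 µM, and its 256.6 CPM at 20 µM lay within the control range. Only EIF3J and EIF3K of these 7 passed with the replicate block (adjusted p = 0.023 and 0.034). No difference between subunits was tested, so the module cannot be said to differ from the rest of eIF3.

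**Figure D2:**
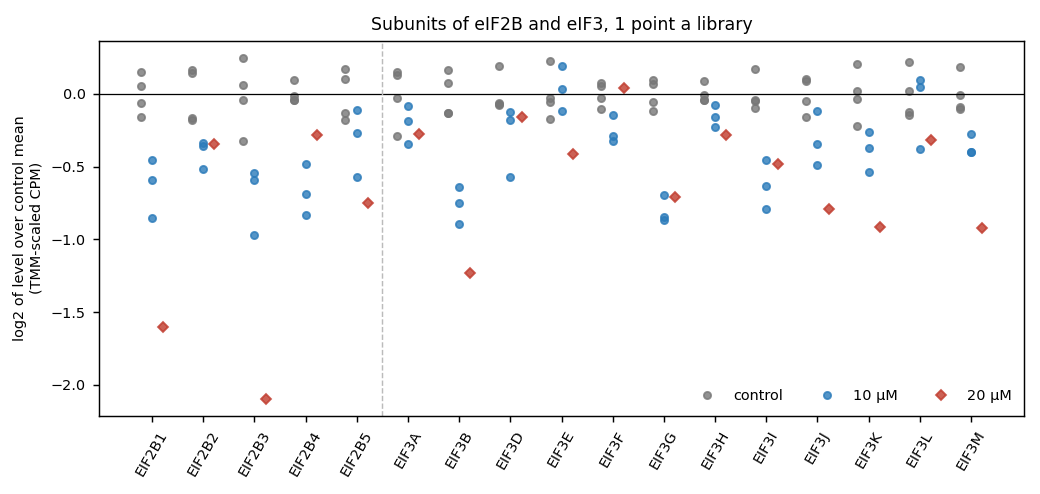
Level of each eIF2B subunit (left of the dashed line) and eIF3 subunit relative to the control mean, as log2 of TMM-scaled CPM, with 1 point a library and doses running from control to 20 µM within each gene. EIF2B1 and EIF2B3 step down at each dose, whereas the 20 µM points of EIF2B4, EIF3G and EIF3I lie above the lowest 10 µM point. EIF3E, EIF3L and EIF3A at 10 µM overlap the controls.

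The genes of cap binding, the eIF4 scaffolds and the eIF4A helicase family gave 5 lower calls of 11 members tested at 10 µM, EIF4A1, EIF4A3, EIF4G1, EIF4G2 and EIF4H. EIF4A1, the main helicase of eIF4F (chr17:7572706-7579005), had 1161, 1224, 1395 and 1151 CPM in controls, 865.1, 762.3 and 700.4 CPM at 10 µM and 584.9 CPM at 20 µM. EIF4A2, its paralog with nearly the same protein, had 223.5, 215.2, 245.2 and 242.5 CPM in controls, 183.6, 209.5 and 227.7 CPM at 10 µM and 211.3 CPM at 20 µM. The EIF4A1 libraries separated by dose, and those of EIF4A2 overlapped. The log2 fold change at 10 µM was −0.67 ± 0.11 for EIF4A1 (adjusted p = 0.0059) and −0.17 ± 0.11 for EIF4A2 (adjusted p = 0.32), and the difference between the paralogs was not tested.

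EIF4A3 shares their helicase fold but works in the exon junction complex on spliced mRNA (chr17:80135214-80147183). It had 177.7, 196.8, 210.9 and 184.3 CPM in controls, 123.7, 102.9 and 94.3 CPM at 10 µM and 92.7 CPM at 20 µM. This was the largest fall of the called members at 10 µM, −0.85 ± 0.12 on the log2 scale (adjusted p = 0.0031). EIF4H, a cofactor of the helicase, had 560.4, 641.2, 669.2 and 603.3 CPM in controls, 468.0, 466.5 and 415.6 CPM at 10 µM and 464.0 CPM at 20 µM, with log2 fold change −0.46 ± 0.10 (adjusted p = 0.015). EIF4B, the other cofactor, averaged 1036 ± 183 CPM in controls and 1100 ± 134 CPM at 10 µM (SD, n = 4 and 3; adjusted p = 0.76), and was 785.5 CPM at 20 µM. EIF4H thus stood below controls at both doses. For EIF4B the 10 µM and control libraries overlapped, and the 20 µM library was the lowest of all. The difference between the cofactors was not tested.

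The scaffold EIF4G1 (chr3:184314495-184335358) had 774.9, 872.2, 877.3 and 782.1 CPM in controls, 588.6, 546.0 and 480.4 CPM at 10 µM and 462.9 CPM at 20 µM. All treated libraries were below all controls, and the log2 fold change at 10 µM was −0.62 ± 0.11 (adjusted p = 0.0061). EIF4G2, a scaffold that lacks the eIF4E-binding part, had 1481, 1690, 1757 and 1659 CPM in controls, 1145, 1356 and 1234 CPM at 10 µM and 895.1 CPM at 20 µM (log2 fold change at 10 µM −0.41 ± 0.10, adjusted p = 0.025). That call was lost without any 1 of 10 µM replicate 4 and controls 2, 3 and 4. EIF4G3, the third scaffold, averaged 85.7 ± 6.60 CPM at 10 µM and 75.3 ± 8.16 CPM in controls (SD, n = 3 and 4; adjusted p = 0.29).

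EIF4E, which binds the cap, had 151.1, 175.3, 201.9 and 175.0 CPM in controls, 127.1, 148.7 and 142.5 CPM at 10 µM and 88.3 CPM at 20 µM. The groups did not overlap, and the log2 fold change at 10 µM was −0.34 ± 0.12 (adjusted p = 0.077, and 0.012 with the block). Between 20 µM and 10 µM it was −0.68 ± 0.19 (adjusted p = 0.026, and 0.23 with the block). EIF4E3, a divergent cap-binding relative expressed at a low level, had 3.47, 1.85, 2.07 and 4.78 CPM in controls, 4.10, 4.22 and 9.35 CPM at 10 µM and 17.1 CPM at 20 µM. The 20 µM library was the highest, 10 µM and controls overlapped, and the log2 fold change of 0.95 ± 0.41 at 10 µM passed only with the block (adjusted p = 0.14 without and 0.0028 with it).

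Of the 3 genes for 4E-binding proteins 1 was called lower at 10 µM, and differences between them were not tested. EIF4EBP1, the best studied of them (chr8:38030341-38060365), had 59.2, 56.2, 64.6 and 54.4 CPM in controls, 45.8, 35.0 and 37.5 CPM at 10 µM and 67.8 CPM at 20 µM. It was lower in every 10 µM library than in any control and highest in the 20 µM library. Its log2 fold change was −0.58 ± 0.12 at 10 µM against control (adjusted p = 0.013, lost without 10 µM replicate 3 or 4) and 0.76 ± 0.17 at 20 µM against 10 µM (adjusted p = 0.012, and 0.070 with the block). EIF4EBP2 had 160.3, 177.5, 172.0 and 192.7 CPM in controls, 191.8, 221.5 and 225.7 CPM at 10 µM and 160.1 CPM at 20 µM. Its 10 µM libraries were mostly above the controls, with 1 overlapping, and the log2 fold change of 0.27 ± 0.10 did not pass (adjusted p = 0.099). EIF4EBP3 was low, at 2.24 ± 0.67 CPM at 10 µM and 1.92 ± 0.61 CPM in controls (SD, n = 3 and 4). EIF4ENIF1, which carries eIF4E into the nucleus and P-bodies, was lower in every treated library than in any control but was not called at 10 µM (log2 fold change −0.30 ± 0.11, adjusted p = 0.080).

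**Figure D3:**
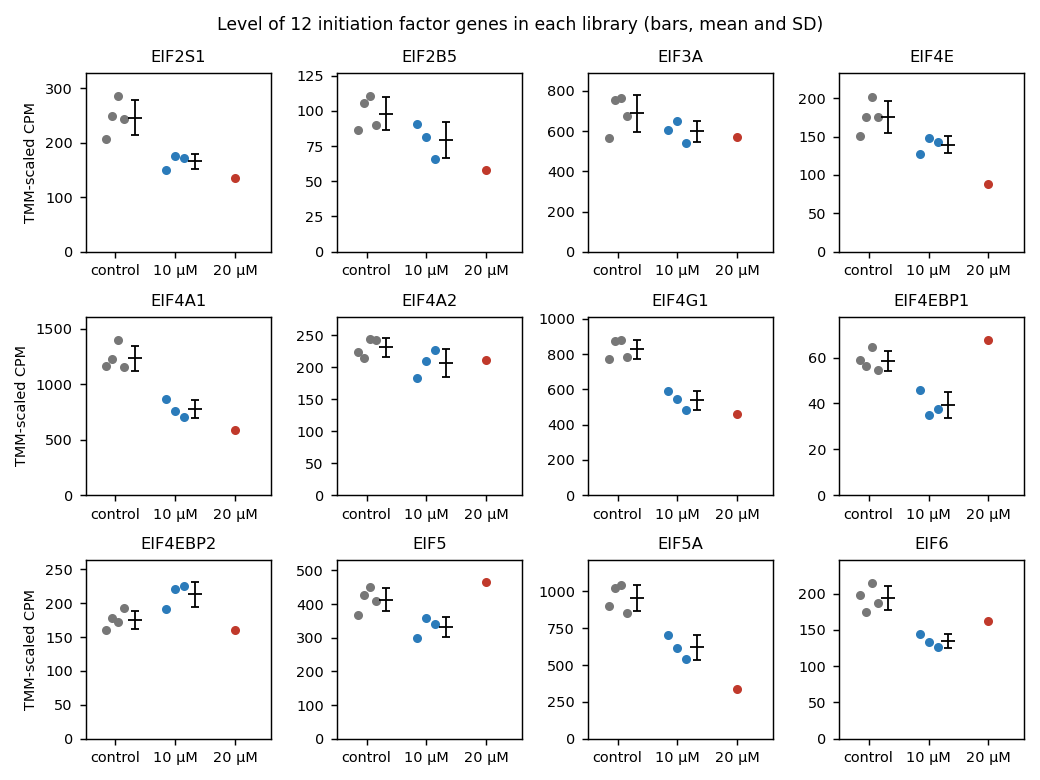
Level of 12 initiation factor genes in each library, in TMM-scaled CPM from 0, for controls (4 libraries), 10 µM (3) and 20 µM (1), with mean and SD beside the points where a group has more than 1 library. EIF4A1, EIF4G1, EIF2S1 and EIF5A separate by treatment, EIF4A2 and EIF3A overlap, and the 20 µM library lies above every other for EIF4EBP1 and EIF5.

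Factors of subunit joining and eIF5A gave 3 lower calls of 5 members tested, EIF5A, EIF5B and EIF6. EIF5A, the factor that carries hypusine (chr17:7306999-7312463), had 902.9, 1022, 1040 and 856.3 CPM in controls, 706.5, 615.1 and 539.3 CPM at 10 µM and 339.0 CPM at 20 µM. EIF5B, the GTPase of subunit joining, had 510.8, 707.3, 667.1 and 532.8 CPM in controls, 427.7, 412.2 and 375.8 CPM at 10 µM and 229.2 CPM at 20 µM. EIF6, which keeps free large subunits from joining, had 198.5, 174.9, 215.0 and 186.9 CPM in controls, 144.5, 132.9 and 126.2 CPM at 10 µM and 162.2 CPM at 20 µM. EIF5A and EIF5B stood lower at 20 µM than at 10 µM, whereas EIF6 at 20 µM lay between the 10 µM and the control libraries.

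At 10 µM the log2 fold changes were −0.63 ± 0.12 for EIF5A (adjusted p = 0.0099), −0.58 ± 0.14 for EIF5B (adjusted p = 0.019, lost without 10 µM replicate 3 or 4 or control 3) and −0.53 ± 0.10 for EIF6 (adjusted p = 0.010). At 20 µM against 10 µM it was −0.89 ± 0.19 for EIF5A (adjusted p = 0.010, held with the block), −0.84 ± 0.21 for EIF5B (adjusted p = 0.019, and 0.064 with the block) and 0.25 ± 0.15 for EIF6 (adjusted p = 0.27). EIF5A2, the paralog of EIF5A, averaged 13.3 ± 0.55 CPM in controls and 15.4 ± 3.26 CPM at 10 µM (SD, n = 4 and 3; adjusted p = 0.45), and was 17.5 CPM at 20 µM. DOHH, the enzyme that completes hypusine on eIF5A, also fell at 10 µM (log2 fold change −0.73, adjusted p = 0.0051), and DHPS, which begins it, was not called (−0.28, adjusted p = 0.16).

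The single 20 µM library against the 3 at 10 µM gave 9 lower members and 3 higher of 51, where 14.6% of all genes were lower and 11.7% higher. The higher ones were EIF1, EIF1B and EIF4EBP1, and the lower ones EIF1AX, EIF2B1, EIF2B3, EIF3M, EIF4E, EIF4G2, EIF5A, EIF5B and the copy EIF5AL1. With the block 4 were lower and 4 higher, against 11.0% and 8.15% of all genes. EIF1, EIF1B, EIF1AX, EIF2B1, EIF2B3 and EIF5A held, EIF5 (log2 fold change 0.70, adjusted p = 0.026) and EIF4E3 (1.24, adjusted p = 0.047) were added, and the others were lost. Against the controls, 25 members were lower and 3 higher at 20 µM, where 20.8% and 19.2% of all genes were, and the median log2 fold change was −0.50, against 0.09 over all genes. These tests assume that the 20 µM library varies like the others, and its dose, replicate number and the single library cannot be told apart. The members lower at 20 µM than in controls include EIF3CL and EIF5AL1, copies that were also low in control 1.

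Genes that regulate or assist initiation were counted in 4 lists, to be read against the 9.79% of all genes lower and 9.34% higher at 10 µM. Among 11 eIF2 kinases, phosphatase subunits and their partners, EIF2AK3 and PPP1R15A rose at 10 µM and GCN1 fell. The 1 lower gene of 11 is near the share over all genes. EIF2AK3, the kinase PERK of the endoplasmic reticulum, averaged 15.9 ± 1.39 CPM in controls and 28.9 ± 6.16 CPM at 10 µM (SD, n = 4 and 3) and was 96.5 CPM at 20 µM (log2 fold change at 10 µM 0.86, adjusted p = 0.0068). PPP1R15A, or GADD34, which returns eIF2α to its unphosphorylated form, averaged 116.6 ± 26.5 CPM in controls and 190.4 ± 29.8 CPM at 10 µM and was 1017 CPM at 20 µM (log2 fold change at 10 µM 0.70, adjusted p = 0.030). GCN1, the activator of the kinase GCN2, averaged 449.4 ± 76.2 CPM at 10 µM and 599.0 ± 37.1 CPM in controls (log2 fold change −0.42, adjusted p = 0.049).

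Of 21 tested genes around mTORC1 and the eIF4E kinases, RPTOR, MLST8, RPS6KB2 and LARP1 fell at 10 µM and PDCD4 and SESN1 rose. The 2 higher genes of 21 are near the 9.34% over all genes. RPTOR, the mTORC1 scaffold, averaged 67.2 ± 5.73 CPM at 10 µM and 93.8 ± 1.08 CPM in controls (SD, n = 3 and 4; log2 fold change −0.49, adjusted p = 0.0088). PDCD4, an inhibitor of the helicase eIF4A, averaged 71.7 ± 11.4 CPM at 10 µM and 34.5 ± 1.95 CPM in controls, and the change was 1.05 on the log2 scale (adjusted p = 0.0015). The helicase gene EIF4A1 and this inhibitor thus moved in opposite directions at 10 µM. Among 19 poly(A)-binding and scaffold partners, PABPC4, ABCF1, BZW2 and DOHH fell and 0 rose, and among 15 genes of elongation and termination EEF1D, EEF1E1, ETF1 and GSPT1 fell and 0 rose. With the block the counts were 2 lower and 2 higher in the first list, 4 and 6 in the second, 7 and 0 in the third and 6 and 0 in the fourth, against 15.2% and 16.2% of all genes. For the first list 2 of 11 genes each way is near those shares, and so is 4 of 21 lower for the second. On the higher side of the second list the block added DDIT4, SESN2, SESN3 and MKNK2. DDIT4 averaged 45.3 CPM in controls and 126.0 CPM at 10 µM and was 814.4 CPM at 20 µM (adjusted p at 10 µM 0.082 without the block and 4.3e-05 with it, edgeR). SESN2 averaged 41.2 and 68.1 CPM and was 470.4 CPM at 20 µM (adjusted p at 10 µM 0.14 and 0.00057). The median log2 fold changes of the 4 lists at 10 µM were 0.15, 0.04, −0.14 and −0.28 in the order given, against −0.31 for the initiation factors and 0.05 for all genes.

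Levels between genes were compared per kilobase of exon, as control means of CPM divided by the union of exons in GENCODE release 29. That union can be longer than the mRNA present in the cells, which makes the value of such a gene too low, so the order is approximate. EIF4A1 was the highest at 702 CPM per kilobase, followed by EIF5A at 456, EIF3E at 430, EIF4G2 at 367 and EIF3I at 317. EIF4E stood at 14.5 CPM per kilobase, over 12.1 kb of exons, the longest of the members. EIF5A2 stood at 2.38 and EIF4E3 at 0.287 CPM per kilobase. The order within pairs was thus EIF4A1 over EIF4A2 (120.5) and EIF5A over EIF5A2, with no overlap between libraries in CPM. At 20 µM EIF1 reached 472 CPM per kilobase, above EIF4A1 at 333 and EIF5A at 162, where in controls it stood at 191.

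The first bases of the transcripts were read because 5′ TOP mRNAs are a known class among these genes. RefSeq starts on GRCh38.p14 were found for 44 of the 52 members. Those without one were EIF2S2, EIF3A, EIF3CL, EIF3E, EIF3G, EIF3H, EIF3L and EIF4EBP1. Of these EIF3G and EIF4EBP1 were called lower at 10 µM, so the shares below leave out these calls and several uncalled eIF3 subunits. A start was counted when its first base was C and at least 4 pyrimidines followed it without a break. Any RefSeq start of a gene could count. Such a start was held by 10 of 44 members (22.7%), against 5.14% of all genes with a RefSeq start. The members were EIF2A, EIF2D, EIF2S3, its copy EIF2S3B, EIF3D, EIF3F, EIF3K, EIF3M, EIF4A2 and EIF4B. In the sequences below the run from the first transcribed base is in capitals, after 10 bases of upstream DNA in lower case. The members shown were chosen because they differ in their values, and all but EIF2S3 share a complex or a fold with another one shown.
EIF3F, chr11:7987327-7987351, plus strand: cttccgcctcCTTCTTTCTCgacaa
EIF3D, chr22:36529152-36529176, minus strand: cgcatgtttcCTCTTTTCCTggttt
EIF3K, chr19:38619178-38619202, plus strand: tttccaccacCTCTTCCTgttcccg
EIF3M, chr11:32583821-32583845, plus strand: gcccagttccCTTTTCCggtcggcg
EIF4A2, chr3:186783567-186783591, plus strand: gcgccgctgtCTTTTCagtcgggcg
EIF4B, chr12:53006446-53006470, plus strand: tcatccgggtCTTTTgcgttctctt
EIF2S3, chrX:24054946-24054970, plus strand: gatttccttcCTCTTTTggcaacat
EIF4A1, chr17:7572815-7572839, plus strand: ggcactccgcCCTagtttctaagga
EIF4H, chr7:74174346-74174370, plus strand: ctcgctcaccCTggttcctctcgga
EIF3B, chr7:2354817-2354841, plus strand: tcgcacgcacatggctgggctgtag
EIF3I, chr1:32222397-32222421, plus strand: ttccggtcttactcacgttgcggcc
EIF4A3, chr17:80147114-80147138, minus strand: cggcagcggcacagcgaggtcggca

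EIF4A1 has a run too short to count and EIF4H a shorter one, and EIF3B, EIF3I and EIF4A3 do not begin with C. All of these were picked with their values known and were called lower at 10 µM, so they do not represent the members with other starts. At 10 µM, 1 of the 10 members with such a start was called lower (EIF3M), with a median log2 fold change of −0.21, and 15 of 33 tested members with other starts were, with a median of −0.39. Over all genes tested with a RefSeq start the shares called lower were 9.38% and 10.3%. The members were too few and not independent for a test, and none was made. A match is a description of these letters and of nothing else.

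**Figure D4:**
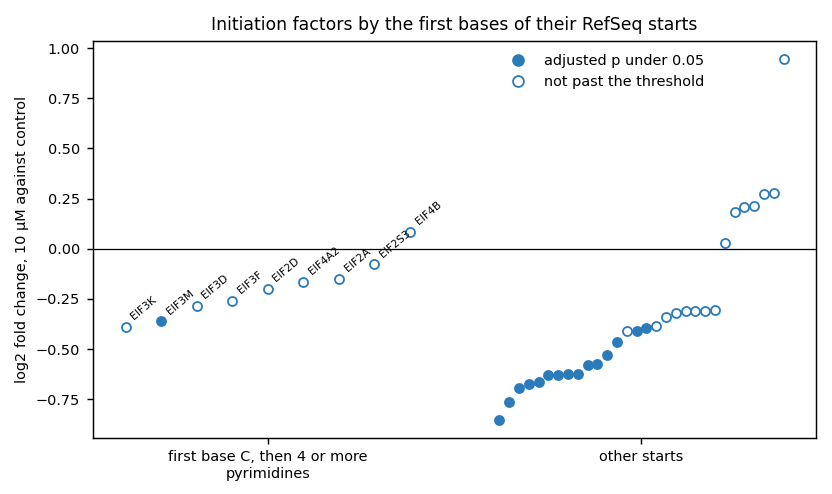
Log2 fold change at 10 µM against control of initiation factor genes, by whether a RefSeq start begins with C in a run of pyrimidines, in order of fold change within each kind. Filled points passed an adjusted p of 0.05, and near-identical copies, EIF1AY and untested genes are left out. On the left only EIF3M is filled, and the filled points on the right reach down to −0.85 (EIF4A3).

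The E-box CACGTG, which reads the same on both strands and is bound by MYC and its relatives, was searched in the 250 bases before each RefSeq start. It was found for 11 of 44 members (25.0%), against 7.73% of all genes. Windows are shown for members that differ in their values at 10 µM, with the motif in capitals.
EIF4A3, chr17:80147224-80147269, minus strand: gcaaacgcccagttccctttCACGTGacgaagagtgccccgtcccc
EIF4G1, chr3:184314519-184314564, plus strand: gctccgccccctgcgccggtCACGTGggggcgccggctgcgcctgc
EIF4H, chr7:74174137-74174182, plus strand: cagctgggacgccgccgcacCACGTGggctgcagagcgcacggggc
EIF2B3, chr1:44986749-44986794, minus strand: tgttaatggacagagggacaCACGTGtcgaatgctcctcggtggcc
EIF4B, chr12:53006414-53006455, plus strand: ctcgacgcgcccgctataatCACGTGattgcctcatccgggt
EIF3F, chr11:7987249-7987294, plus strand: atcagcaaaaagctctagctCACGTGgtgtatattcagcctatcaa

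At 10 µM, 4 of 11 members with the motif and 12 of 32 without it were called lower, with medians of −0.34 and −0.32. Among all genes tested 14.4% with the motif and 9.77% without it were called lower. The members with and without an E-box thus had nearly the same share of calls. The letters TGATGNAAN, a form of the element read by ATF4 and its partners, were found in this window, on either strand, for 1 member, EIF4E3, and for 3.87% of all genes. The lack of a match in this window says nothing about the factor.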

How the data were processed

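The members and gene lists were chosen with earlier results of these data known. The authors deposited 1 table of whole-number counts, with genes in rows and libraries in columns, per the file headers. The submitters' processing notes name bcl2fastq 2.0, HISAT2, StringTie, DESeq2, limma and hg38, with no roles given. The table has 401 entries at 1 count and 2958 at 4, so that 1 count need not be 1 read. Whether strand was used in counting is not given in the sources used here, so overlapping and antisense genes cannot be told apart. A further 9 lines without a gene name stayed out of library sizes and tests. Total counts ran from 71151415 to 141307169, TMM factors from 0.903 to 1.09.

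Genes were filtered with filterByExpr, scaled by TMM and tested with edgeR 4.0.16 (quasi-likelihood, two-sided) in R 4.3.3, with Benjamini-Hochberg adjustment over all genes at 0.05. The main comparison set 4 treated against 4 control libraries, and a fit with 3 dose levels gave 10 µM against control and 20 µM against 10 µM. SE is the log2 fold change over the square root of F. The pipeline was tested on simulated data. Same-numbered treated and control libraries deviated together (correlations 0.25 to 0.45, other pairs −0.48 to 0.31). Deviations were taken from the mean of the 4 treated and of the 4 control libraries. The deviation of the 20 µM library thus holds any effect of dose. Deviations within a group sum to 0, so part of the negative correlations is forced. Each treated library correlated most with its same-numbered control, but 10 µM replicate 2 by little (0.251 with control 2, 0.242 with control 3). Control 2 correlated more with 10 µM replicate 3 (0.31). The block thus assumes a pairing by number that these values do not settle, and the calls it changed are given.

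Genes named with values in each library were those past the threshold in treated or 10 µM against control, at most 12 of smallest p in each, and a set of 12 (EIF2S1, EIF2B5, EIF3A, EIF4E, EIF4A1, EIF4A2, EIF4G1, EIF4EBP1, EIF4EBP2, EIF5, EIF5A, EIF6). Values of EIF2B3, EIF4G2, EIF5B, EIF1, EIF1B, EIF1AX, EIF4E3 and of subunits and paralogs beyond these were added after they were seen. From the lists, called genes and those of smallest p were named. Alternatives were relative log expression and upper-quartile scaling, no filter, a filter of 1 CPM in 3 libraries, DESeq2 1.42.0, limma-voom (limma 3.58.1), the replicate block, each library left out, libraries named by letters or by digits alone and, added after seeing the data, copies summed.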

Additional observations from a re-analysis of the deposited data

Results flagged for a closer look

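In controls, 50 members were checked for a library that stood far from the other 3 (Dixon's 95% critical value), and 2 were found, both in control 3. Chance gives about 1 such group in 20. EIF1 had 486.9 CPM in control 3, against 431.9 to 436.3 CPM in the other controls, which is still below every treated library. EIF3D had 324.1 CPM in control 3, against 268.5 to 271.0 CPM in the others. Their cause was not tested.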

How the results depend on the processing

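For 10 µM against control, 18 members were lower in the fit reported and 17 to 26 under other scalings, filters and tools, 12 to 22 without 1 library, and 28 with the replicate block. Members higher numbered 1 with upper-quartile scaling, a filter of 1 CPM or DESeq2, 0 to 1 without 1 library and 2 with the block. All genes lower numbered 721 to 1586 and higher 643 to 1435 without 1 library, and 2251 and 2406 with the block. For all treated against control, members lower numbered 9 with no filter, 23 with DESeq2, 0 to 22 without 1 library and 0 in libraries named by letters. Members higher numbered 1 with DESeq2, the block or libraries named by digits and 0 to 1 without 1 library. All genes lower numbered 1657 with DESeq2, 1360 with the block, 0 in letters-named and 1485 in digits-named libraries, and 21 to 1586 without 1 library. All genes higher numbered 1738, 0 and 1652 with DESeq2, in letters-named and in digits-named libraries, and 43 to 1435 without 1 library. For 20 µM against 10 µM, DESeq2 gave 14 lower and 5 higher members and the block 4 lower, against 9 and 3. Signs that turned with the block or, among named members, under another alternative were all of values past no threshold. At 10 µM these were EIF3E (log2 fold change −0.0159 with the block, −0.0521 to 0.121 without 1 library), EIF4B (−0.0116 with the block, −0.0181 to 0.184), EIF4EBP3 (−0.000664 to 0.425), EIF1B (−0.0989 to 0.117) and EIF3L (−0.159 to 0.0668). Between doses these were, with the block, EIF2S1 (0.00729), EIF3A (0.286), EIF1AD (0.0304), EIF2A (0.343), EIF3G (−0.0535), EIF4EBP3 (−0.00951) and the copies EIF3CL (0.237) and EIF2S3B (2.69), and EIF4A2 without 1 library (−0.0709 to 0.0643), and for all treated EIF5 (0.00326 in letters-named libraries). The cause was not tested. Apart from the calls given in the report, the block changed no other call of a named member at 10 µM. Counts limit members of low level, such as EIF4E3 and EIF4EBP3, and the single 20 µM library limits every statement on that dose.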
